A study of Arabidopsis thaliana with 3 samples.

Results

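The 10 genes described here set the fate of trichomes, the hairs of the shoot surface, and of the epidermis in Arabidopsis thaliana. They are TTG1 (AT5G24520), GL1 (AT3G27920), GL3 (AT5G41315), EGL3 (AT1G63650), GL2 (AT1G79840), TTG2 (AT2G37260), TRY (AT5G53200), CPC (AT2G46410), ATML1 (AT4G21750) and PDF2 (AT4G04890). They were picked by gene identifier out of 26810 genes listed in any of 3 tables. The set was chosen with its measured values in view, TTG2 for its high GMUCT value beside a low RNA-seq value. The values of the 10 genes in these libraries are therefore given as a description and carry no test. All 10 were listed in all 3 libraries; a gene missing from a table was taken as 0 RPKM.

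All plants carried dcl1-7, a mutant allele of DCL1, whose product releases microRNAs from their precursors, and received no treatment. Buds of immature inflorescences were taken at about 4 weeks from plants in days of 16 h light and 8 h dark. PolyA RNA was read in strand-specific reads of 50 nt, in 1 GMUCT library and 2 RNA-seq libraries. GMUCT reads the uncapped 5′ ends of polyadenylated transcripts, which arise from decapping or cutting, while RNA-seq samples polyA RNA as a whole. Values are in RPKM, reads scaled to gene length and library size. GMUCT values are single measurements with no replicate error, and RNA-seq values are means ± SD over n = 2. The labels do not say whether separate plants gave the RNA-seq libraries. The p-values below set each difference between assays against the spread of the 2 RNA-seq libraries alone, which may be technical. Plants of another genotype were not analysed here.

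In leaf trichomes the WD40 protein TTG1, a MYB protein such as GL1 and a bHLH protein, GL3 or EGL3, form an activating complex. The complex turns on GL2 and TTG2, which drive trichome growth and, in the seed, features of the seed coat. It also turns on small R3 MYB proteins such as TRY and CPC, which move to neighbouring cells and compete with GL1 for the bHLH partner. ATML1 and PDF2 act earlier, giving the outermost cell layer its epidermal identity. In inflorescence stems the miR156 target SPL9 is known to activate TRY and its relative TCL1.

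Between the RNA-seq libraries Pearson's r was 0.993 across 20214 genes, and genes are no independent replicates. The steps between low RPKM values put the depth near 19300000 reads for GMUCT, and near 18300000 and 8700000 reads for RNA-seq libraries 1 and 2. DCL1 (AT1G01040) was at 7.57 RPKM in GMUCT and at 15.6 ± 0.608 RPKM in RNA-seq (log2 ratio -0.997, limma adjusted p = 0.0082), a call lost once a trend with transcript length was removed (-0.01). These values do not check the genotype. Flower identity genes were present, with RNA-seq means between 1.32 RPKM for LFY and 138.7 RPKM for SEP3. Of 8 root and mature seed markers, 6 were at 0 in both RNA-seq libraries, yet they had 0.51 to 2.95 RPKM in GMUCT. GL1, GL2, GL3 and CPC all had GMUCT values below the top of that range. Its part in their values was not tested.

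TTG2, a WRKY transcription factor, had the highest GMUCT value of the 10 genes and nearly the lowest RNA-seq level. GMUCT gave it 53.32 RPKM, against 0.27 and 0.05 RPKM in RNA-seq libraries 1 and 2. The GMUCT value lay far above both RNA-seq values, which averaged 0.160 ± 0.156 RPKM. By the estimated depths this is about 1910 reads in GMUCT, against about 9.17 and 0.807 reads in RNA-seq. The log2 ratio of the GMUCT value to the RNA-seq mean was 6.37, computed on RPKM + 0.5, a scale that understates the ratio of low genes. It was 6.13 against RNA-seq library 1 alone and 6.61 against library 2 alone. Among all 26810 genes TTG2 ranked 1734 by GMUCT and 21627 by RNA-seq, and its ratio ranked 28 of the 20214 genes that averaged at least 1 RPKM over both assays. It reached that minimum only through its GMUCT value.

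**Figure D1:**
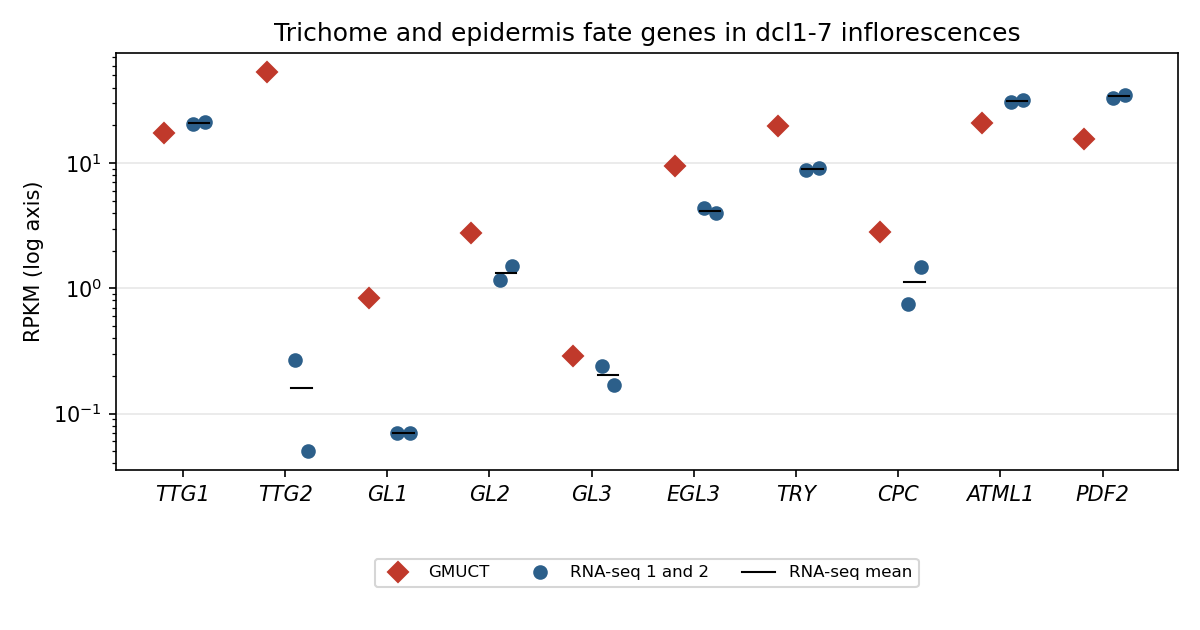
RPKM on a log axis of each of the 10 fate genes in the GMUCT library (red diamonds) and in RNA-seq libraries 1 and 2 (blue circles, with a bar at their mean). TTG2 stands at 53.32 RPKM in GMUCT and at 0.27 and 0.05 RPKM in RNA-seq, while TTG1, ATML1 and PDF2 are the genes whose GMUCT value lies below both RNA-seq values.

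Low RNA-seq levels were common, and high GMUCT values beside them were not. Of 8129 genes with under 1 RPKM in RNA-seq, 28 had at least 50 RPKM in GMUCT, TTG2 among them. TTG2 was chosen for this pairing of values, so its place among the 28 was fixed by the choice. The quartiles of the log2 ratio over the 8129 genes were 0.42 and 1.52. GMUCT also listed 2624 genes at 0 in both RNA-seq libraries, whose GMUCT median was 0.48 RPKM and whose 95th percentile was 5.77 RPKM. Of these genes, 9 reached the GMUCT value of TTG2. Whether their GMUCT values are background or uncapped ends of their own transcripts was not tested.

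**Figure D2:**
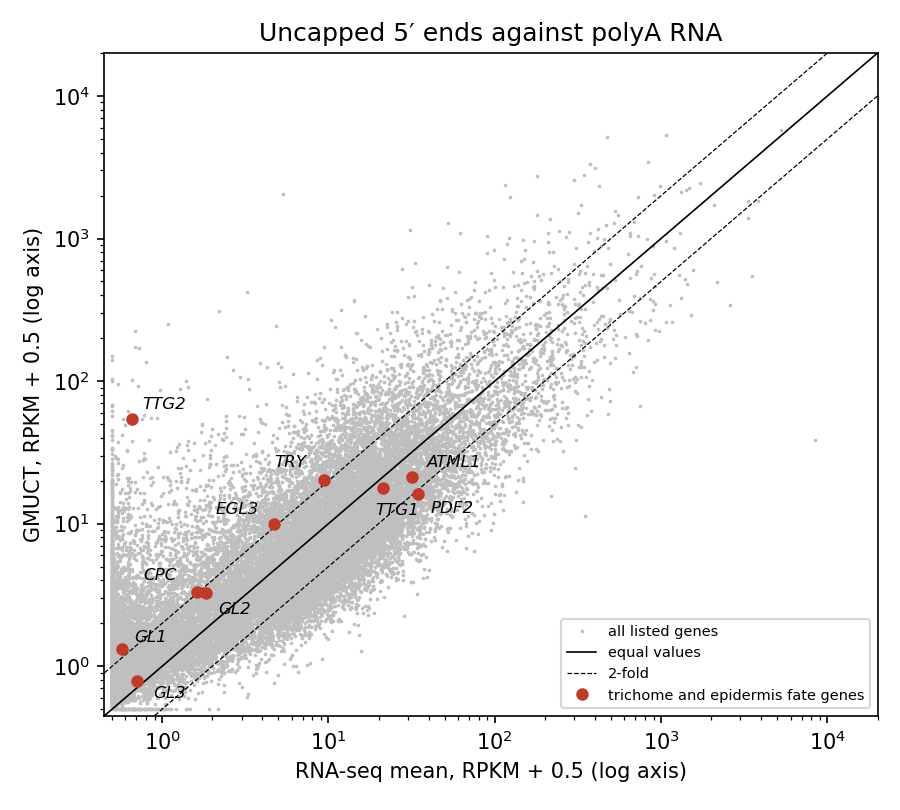
GMUCT against mean RNA-seq level, both as RPKM + 0.5 on log axes, for all 26810 listed genes (grey) and the 10 fate genes (red), with lines at equal values and at 2-fold. TTG2 lies at the upper left, far from the line of equal values, and the other 9 genes lie within or near the 2-fold lines.

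The annotated surroundings of TTG2 gave no overlapping gene. TTG2 has 5 exons and a longest transcript of 1856 nt in the TAIR10.1 annotation, and none of its 1611 exonic stretches of 50 nt recurs elsewhere in that genome. The gene upstream on the same strand, ADK (AT2G37250), an adenosine kinase, ends 667 nt away and had 29.34 RPKM in GMUCT, against 21.15 and 24.06 RPKM in RNA-seq. RPS5B (AT2G37270), a ribosomal protein gene on the opposite strand 600 nt downstream, had 36.4 RPKM in GMUCT, against 79.36 and 82.34 RPKM in RNA-seq. ABCG33, the next gene on the strand of TTG2, had 0.54 RPKM in GMUCT, against 0.20 and 0.25 RPKM in RNA-seq. None of these neighbours paired a high GMUCT value with an RNA-seq level near 0.

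**Figure D3:**
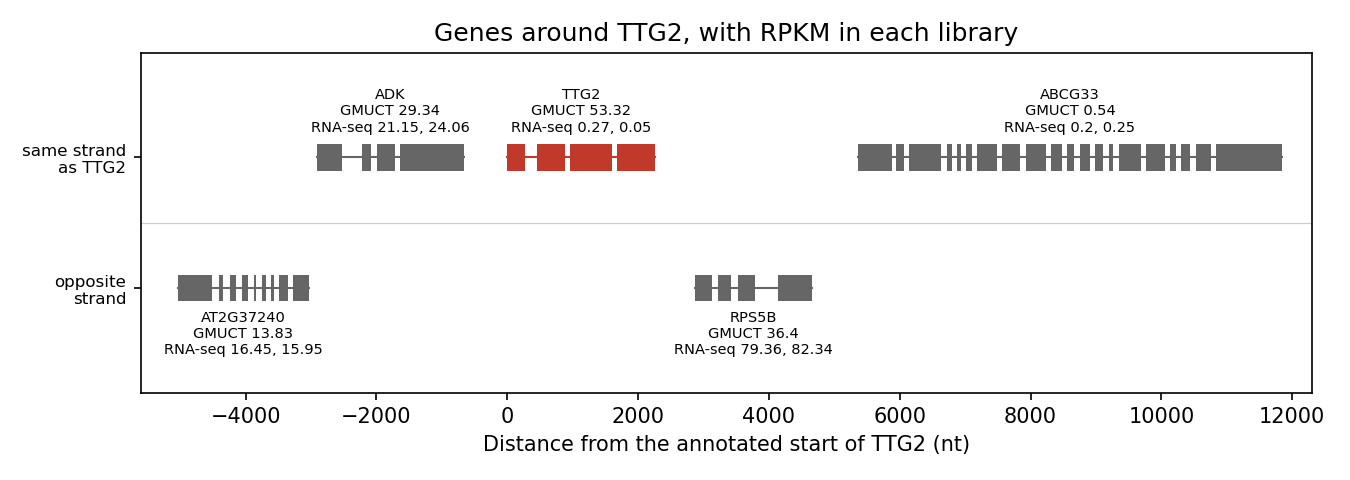
Protein-coding genes around TTG2 by distance in nt from its annotated start, on the strand of TTG2 (top) and the opposite strand (bottom), with exons of any annotated transcript as boxes and the RPKM of each library. TTG2 has 53.32 RPKM in GMUCT beside 0.27 and 0.05 RPKM in RNA-seq, whereas ADK and RPS5B have more than 20 RPKM in every library.

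The 5 genes nearest to TTG2 in their values were found by that likeness alone. Nearness was the Euclidean distance over the 3 libraries on log2(RPKM + 0.5). The nearest was AT5G52901, at 61.1 RPKM in GMUCT, against 0.24 and 0 RPKM in RNA-seq (distance 0.25). AT4G18501 followed, at 48.57 RPKM in GMUCT, against 0.19 and 0 RPKM in RNA-seq. The next were AT2G33705, an F-box family gene, AT5G24250, and AT2G25410, a RING/U-box gene, at distances of 0.43, 0.52 and 0.57. AT5G52901 and AT5G24250 have no entry in the annotation used.

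Other WRKY genes did not share the pattern to the same size. Of 67 others, 40 were tested, and limma called 16 higher and 9 lower in GMUCT at an adjusted p of 0.05. Over all 20214 genes tested, limma called 32.1% higher and 36.9% lower. A gene that reached the minimum level through 1 assay only could be called in that direction only. That was so for 6 of the 16 higher and 3 of the 9 lower WRKY genes, and for 1525 of the 6489 higher and 304 of the 7468 lower genes over all. The WRKY median log2 ratio was 0.22, against -0.07 over all genes tested. WRKY43 had the highest ratio, 4.71, with 43.25 RPKM in GMUCT, against 0.88 and 1.53 RPKM in RNA-seq (limma adjusted p = 0.0072). WRKY8 came next at 8.84 RPKM in GMUCT, against 0.03 and 0 RPKM in RNA-seq, the highest GMUCT value of the 34 WRKY genes with under 1 RPKM in RNA-seq. It reached the minimum level through GMUCT only, so its direction was fixed. On plain RPKM, its ratio to the RNA-seq mean of 0.015 RPKM was larger than that of TTG2. That mean rests on about 0.755 reads in RNA-seq library 1. The lowest ratios were those of WRKY42, at -1.96, and WRKY34, at -1.35, both of which reached the minimum level through RNA-seq only.

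**Figure D4:**
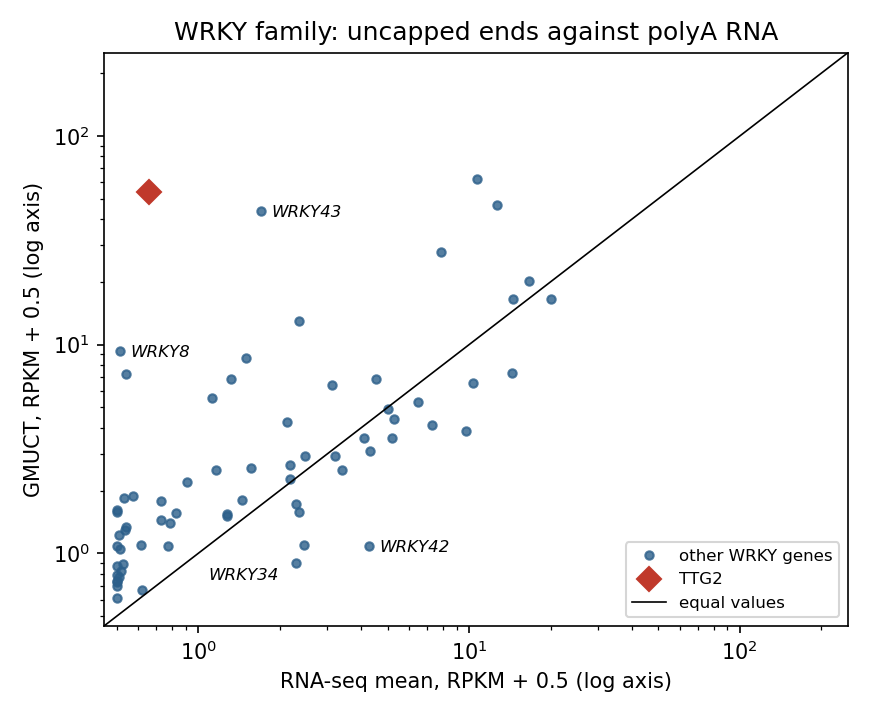
GMUCT against mean RNA-seq level, both as RPKM + 0.5 on log axes, for TTG2 (red diamond) and the 67 other WRKY genes (blue circles), with the line of equal values. WRKY43 at 43.25 RPKM in GMUCT comes nearest to the height of TTG2 among WRKY genes with a low RNA-seq level, and WRKY8 stands at 8.84 RPKM.

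The activating complex was unevenly represented. TTG1, the WD40 scaffold, had 17.39 RPKM in GMUCT, against 20.66 and 21.15 RPKM in RNA-seq. Its GMUCT value was a little below both RNA-seq values, with a log2 ratio of -0.26. GL1, the MYB subunit of leaf trichomes, had 0.83 RPKM in GMUCT, against 0.07 and 0.07 RPKM in RNA-seq. That is about 15.1 reads in GMUCT, against about 1.21 and 0.574 reads in RNA-seq, so GL1 was barely detected in polyA RNA of these buds. In such whole-bud RNA, fewer trichome cells and less RNA per cell cannot be told apart.

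The bHLH partners differed in level. EGL3 had 9.42 RPKM in GMUCT, against 4.38 and 3.98 RPKM in RNA-seq, so GMUCT lay above both (log2 ratio 1.09). GL3 had 0.29 RPKM in GMUCT, against 0.24 and 0.17 RPKM in RNA-seq, a log2 ratio of 0.17. The GL3 values rest on about 15.1 GMUCT reads, against about 11.9 and 4.00 RNA-seq reads. In the coding sequence GL3 and EGL3 are 81.3% identical but share no stretch of 50 nt, the read length. The annotation also places 36 nt of GL3 across an RNA gene on the other strand. Whether reads were counted by strand is unknown, so the GL3 value is uncertain.

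Among 7 further MYB and bHLH partners, 4 were tested and limma called 2 higher and 1 lower in GMUCT, beside 32.1% and 36.9% over all genes tested. Both higher genes reached the minimum level through GMUCT only, so their direction was fixed. They were MYB23, which can replace GL1 in part, at 2.41 RPKM in GMUCT against 0.085 ± 0.0495 RPKM in RNA-seq, and TT2, the MYB partner of TTG1 in seed coat pigment, at 2.29 RPKM in GMUCT against 0.58 ± 0.0566 RPKM in RNA-seq. Both GMUCT values lie within the range of 0.51 to 2.95 RPKM found for the markers at 0 in RNA-seq. MYC1, a bHLH relative of GL3, was lower, at 2.30 RPKM in GMUCT against 3.92 ± 0.354 RPKM in RNA-seq (log2 ratio -0.66, limma adjusted p = 0.037). That last call was lost without the minimum level and after removal of the length trend.

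The mobile inhibitors both had more GMUCT than RNA-seq signal. TRY had 19.88 RPKM in GMUCT, against 8.72 and 9.20 RPKM in RNA-seq, a log2 ratio of 1.11. CPC had 2.81 RPKM in GMUCT, against 0.75 and 1.49 RPKM in RNA-seq, a log2 ratio of 1.07. For both genes the GMUCT value lay above the RNA-seq values, but CPC was 2-fold above library 1 only. The RNA-seq values of CPC rest on about 10.5 and 9.89 reads and differed most between the libraries among the 10 genes (log2 difference 0.67).

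Among 5 R3 MYB relatives of TRY and CPC, 3 were tested and limma called all 3 higher in GMUCT, beside 32.1% over all genes tested. For ETC1 the direction was fixed, as it reached the minimum level through GMUCT only, and its call was lost without the minimum level. TCL1, which represses trichomes on the inflorescence stem, had 33.13 RPKM in GMUCT, against 7.30 ± 0.552 RPKM in RNA-seq (log2 ratio 2.11, limma adjusted p = 0.0055). ETC3 had 65.27 RPKM in GMUCT, against 14.1 ± 1.36 RPKM in RNA-seq (log2 ratio 2.18, limma adjusted p = 0.0058). ETC1 had 3.71 RPKM in GMUCT, against 0.315 ± 0.247 RPKM in RNA-seq (log2 ratio 2.09 against library 1 and 2.72 against library 2). ETC2, at 1.60 RPKM in GMUCT, and TCL2, at 0.05 RPKM, were too low to be tested.

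Transcript length moved with these ratios. The R3 MYB transcripts are short, with a median of 676 nt for all 5 relatives, and 903 nt for TRY and 763 nt for CPC. With the genome-wide trend of the ratio on transcript length removed, the log2 ratio of TCL1 was 1.43 and it kept its limma call. The log2 ratio was then 0.59 for TRY and 0.48 for CPC. TRY was then no longer 2-fold above the RNA-seq libraries.

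The class IV homeodomain genes fell on both sides. GL2, the target of the activating complex, had 2.75 RPKM in GMUCT, against 1.16 and 1.51 RPKM in RNA-seq, a log2 ratio of 0.83. Its GMUCT value lay above both RNA-seq values, by less than 2-fold on this scale. The annotation places 155 nt of GL2 across a long non-coding RNA gene on the same strand, and how reads in shared stretches were counted is unknown, so the GL2 value is uncertain.

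ATML1 and PDF2, the genes of epidermal identity, had the highest RNA-seq levels of the 10. ATML1 had 20.71 RPKM in GMUCT, against 30.54 and 31.90 RPKM in RNA-seq, a log2 ratio of -0.58. PDF2 had 15.64 RPKM in GMUCT, against 33.20 and 35.11 RPKM in RNA-seq, a log2 ratio of -1.10. Both GMUCT values lay below both RNA-seq values, and PDF2 was the only fate gene at least 2-fold below both libraries. The pair is 84.2% identical in coding sequence and shares no stretch of 50 nt. Their transcripts are long, at 3972 nt for ATML1 and 3286 nt for PDF2, and with the length trend removed the log2 ratios were 0.03 for ATML1 and -0.65 for PDF2.

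Their relatives also fell on both sides. Of 13 further class IV genes, 8 had a log2 ratio above 0 and 5 below. Those not tested were all among the 8, with RNA-seq means of 0.005 to 0.075 RPKM. At such RNA-seq levels a ratio below 0 was hardly possible, so the 8 and 5 are not compared. The 7 tested had a median of -1.11, and limma called 5 lower and 2 higher, beside 36.9% and 32.1% over all genes tested. HDG12 was lowest, at 2.96 RPKM in GMUCT against 8.55 ± 0.728 RPKM in RNA-seq (log2 ratio -1.38, limma adjusted p = 0.010). HDG1, HDG2, HDG5 and ANL2 were the other lower genes, at log2 ratios of -1.34, -1.11, -1.25 and -0.53. HDG11, which limits trichome branching, was higher, at a log2 ratio of 0.59, and HDG7, at 1.18, reached the minimum level through GMUCT only. The call of HDG7 was lost without the minimum level. With the length trend removed, limma called 3 of the 7 lower and 2 higher, and the median was -0.47.

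**Figure D5:**
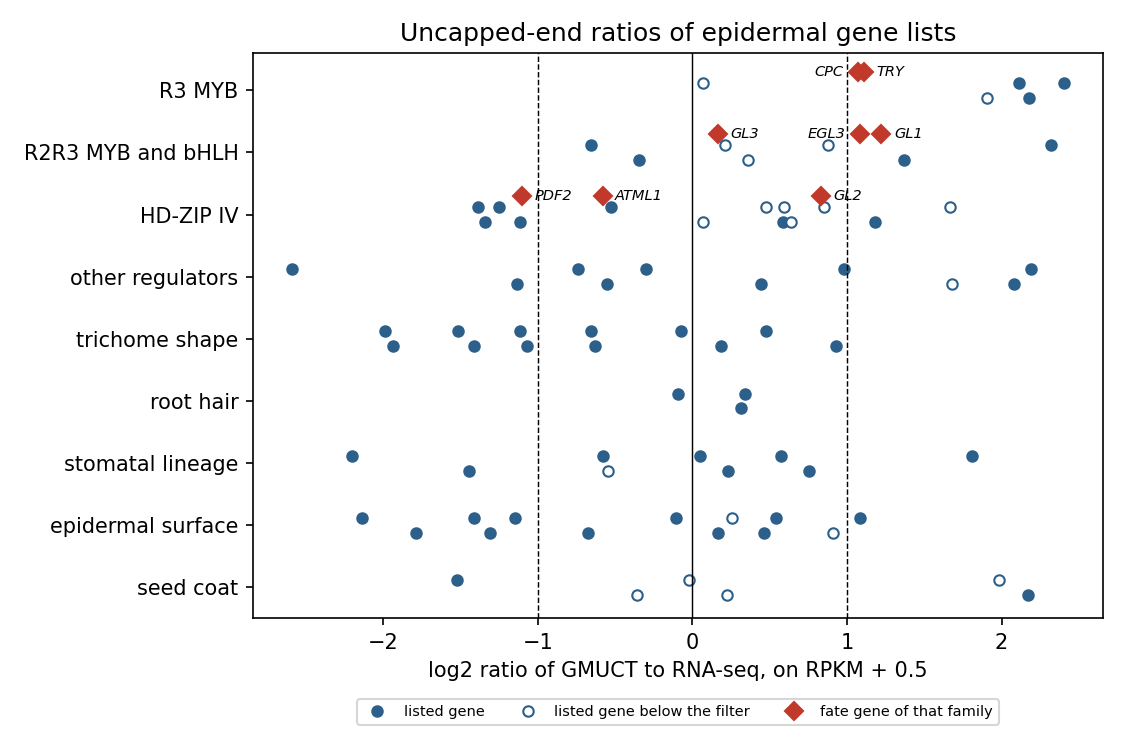
Log2 ratio of GMUCT to RNA-seq, on RPKM + 0.5, for 9 lists of epidermal genes (filled circles, tested; open circles, below the minimum level) and for the fate genes of the same families (red diamonds), with dashed lines at 2-fold. The 3 tested R3 MYB relatives lie above 2 while 5 of the 7 tested class IV homeodomain genes lie below 0; genes missing from both RNA-seq tables (ZFP6, RHD6, RSL4 and EXPA7) have no ratio and are not drawn.

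By the size rule, which asks that GMUCT differ by 2-fold or more from each RNA-seq library, on the same side, 4 of the 10 fate genes were above (TTG2, GL1, EGL3 and TRY) and 1 was below (PDF2). The same rule put 21.5% of all 26810 listed genes above and 13.1% below. As the choice of the genes used these values, nothing is read from the difference. The median log2 ratio of the 10 was 0.95, against 0.22 over all listed genes. On RPKM + 0.5, only TTG2 was at least 4-fold above both libraries, while with a pseudocount of 0.1 the log2 ratio of GL1 was 2.45. With the length trend removed, 3 were above (TTG2, EGL3 and GL2) and PDF2 was no longer below.

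The ratio varied with level over the whole data set, so each gene was set beside genes of its own RNA-seq level. Between 1 and 5 RPKM the upper quartile of the log2 ratio was 0.84; EGL3 and CPC lay above it and GL2 just below. From 5 to 20 RPKM the upper quartile was 0.44, and TRY lay above it. At 20 RPKM or more the quartiles were -1.17 and 0.32, and TTG1, ATML1 and PDF2 all lay between them. Under 1 RPKM the upper quartile was 1.52, exceeded by TTG2, while GL1 lay inside the quartiles and GL3 below the lower.

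The order of the genes also differed between the assays. By GMUCT the order from high to low was TTG2, ATML1, TRY, TTG1, PDF2, EGL3, CPC, GL2, GL1 and GL3. By mean RNA-seq level it was PDF2, ATML1, TTG1, TRY, EGL3, GL2, CPC, GL3, TTG2 and GL1. In RNA-seq the library values of GL2 and CPC overlapped, as did those of GL3 and TTG2, and of TTG2 and GL1, so these neighbours are not ordered beyond their spread. Spearman's rho between the assays was 0.44 over the 10 genes and 0.85 over the 9 without TTG2, a description over genes that share their libraries.

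Other trichome regulators were mixed, with 3 of 9 tested genes higher and 4 lower in GMUCT by limma, close to the 32.1% and 36.9% over all genes tested. ZFP8, a zinc finger activator of trichome initiation in the inflorescence, was higher, at 6.42 RPKM in GMUCT against 1.03 ± 0.191 RPKM in RNA-seq (log2 ratio 2.19, limma adjusted p = 0.0079). GIS, of the same family, had 2.16 RPKM in GMUCT against 0.13 ± 0.0283 RPKM in RNA-seq and reached the minimum level through GMUCT only. SIM, a cell cycle inhibitor needed for endoreduplication in trichomes, was higher at a log2 ratio of 0.98. KAK, a ubiquitin ligase that limits trichome branching, was lower, at 5.63 RPKM in GMUCT against 36.5 ± 2.80 RPKM in RNA-seq (log2 ratio -2.59, limma adjusted p = 0.0049). MYB106, GTL1 and MYB16 were lower at -1.13, -0.74 and -0.55.

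Of 12 genes of trichome shape, all tested, limma called 8 lower and 1 higher in GMUCT, beside 36.9% and 32.1% over all genes tested, and the median log2 ratio was -0.86. ARPC5A, a subunit of the actin-nucleating ARP2/3 complex, was lowest, at 2.76 RPKM in GMUCT against 12.5 ± 0.990 RPKM in RNA-seq (log2 ratio -1.99, limma adjusted p = 0.0064). SCAR2, NAP1 and PIR, of the WAVE complex that activates ARP2/3, were lower at -1.94, -1.41 and -1.52. ARP2 itself was the gene that was higher, at 12.63 RPKM in GMUCT against 6.40 ± 0.339 RPKM in RNA-seq (log2 ratio 0.93, limma adjusted p = 0.012). These transcripts are long, with a median of 3505 nt, and with the length trend removed limma called 5 lower and 4 higher, at a median of -0.07.

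Seed coat genes that act below TTG1 or TTG2 were mostly too low to test. Of 6, limma tested 2. TT12, a tannin transporter of the seed coat, had 4.00 RPKM in GMUCT against 0.50 ± 0.0849 RPKM in RNA-seq (log2 ratio 2.17) and reached the minimum level through GMUCT only. MUM4, an enzyme of mucilage synthesis, was lower, at 18.8 RPKM in GMUCT against 55.0 ± 1.63 RPKM in RNA-seq (log2 ratio -1.52, limma adjusted p = 0.0047).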

How the data were processed

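The deposited tables, 1 per library, give a gene identifier and an RPKM value with 2 decimals, computed by the authors. Per the submitters' processing notes, cutadapt 1.4.2, STAR 2.4.0 and build TAIR10 were used. Not given in the sources used here are the counting tool, annotation release and handling of strand and multiple matches. A gene missing from a table was taken as 0 RPKM.

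Values were compared as log2(RPKM + 0.5). The 20214 genes with an average of GMUCT and mean RNA-seq level of 1 RPKM or more were tested two-sided with lmFit and trended eBayes of limma 3.58.1 in R 4.3.3, with Benjamini-Hochberg adjustment at 0.05. The fit had 1 residual degree of freedom, and the lone GMUCT library was assumed to vary like the RNA-seq libraries. The size rule counted genes whose GMUCT value was 2-fold or more away from each RNA-seq library. The procedure was run on simulated data, whose outcome is not given here. The simulation gave the GMUCT and RNA-seq libraries the same added spread, so it could not test that assumption of the fit.

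The fate genes, the 9 epidermal gene lists and the 4 marker lists were chosen with earlier results of these data known. Besides the fate genes and DCL1, the genes to name were the highest and lowest ratio of each list among genes past the minimum level, the 5 genes nearest to TTG2, and the 2 highest and 2 lowest WRKY ratios. Other genes of a list were named after their values were seen.

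Depth was estimated from steps of low RPKM values times transcript length. Of these values 36.2% (GMUCT), 31.3% and 34.8% (RNA-seq 1 and 2) fell no more than 0.1 from a whole read, where chance gives 20%, so read numbers are approximate and no intervals were built on them. Gene models came from TAIR10.1, which held 26459 of the identifiers and differs in name from the authors' build, so no coordinates are printed. Alternatives covered pseudocounts, centring, length trend, filters, eBayes without trend, fold thresholds and single RNA-seq libraries. Scripts ran in Python 3.11.15 with Biopython 1.88, statsmodels 0.14.6, pandas 2.3.3 and numpy 2.4.6. Some results are not reported here.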

Additional observations from a re-analysis of the deposited data

How the results depend on the processing

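TTG2 kept a log2 ratio between 5.56 (pseudocount of 1) and 7.83 (pseudocount of 0.1) under every alternative run. Against the 4 fate genes counted as 2-fold above by the size rule, a pseudocount of 1 left 2 (TTG2 and TRY) and a 4-fold rule left 1, and leaving out a replicate gave 4 to 5. The 1 fate gene 2-fold below, PDF2, was no longer counted (0 genes) under centring, with the length trend removed and under the 4-fold rule, and leaving out a replicate gave 1 to 1. Among the 82 genes of the 9 lists, the number 2-fold below was 19, beside 13.1% of all listed genes, or 10 with the length trend removed. With a replicate left out it was 19 to 20. The number 2-fold above was 18, beside 21.5% of all listed genes, and 18 to 20 with a replicate left out. It was 26 with a pseudocount of 0.1 and 16 with a pseudocount of 1. Shares over all genes under these alternatives are not given, so such moves are not read as particular to the lists. The number of list genes higher by limma was 19, or 9 with a minimum of 5 RPKM, which tests fewer genes. Without a minimum level, limma called 9098 genes higher and 6325 lower over all genes, against 6489 and 7468 with it. COBL9 turned from -0.09 to 0.0498 with the length trend removed, and was 0.13 against RNA-seq library 2 alone, and was not called. ATML1 turned from -0.58 to 0.03 with the length trend removed. Of the other named genes' values under the alternatives, 6 lost their call. Apart from these constructions, the cause was not tested. limma was not run without an RNA-seq library because no residual degree of freedom is left. No paired analysis was possible because there was 1 GMUCT library, and the labels do not say whether it shares material with an RNA-seq library. The single GMUCT library and the low read numbers of GL1, GL3, CPC and, in RNA-seq, TTG2 limit what can be said of them.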

Other observations

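Of 8 tested stomatal lineage genes, limma called 3 higher and 3 lower in GMUCT, close to the 32.1% and 36.9% over all genes tested, and the median log2 ratio was 0.14. EPF1, a secreted peptide that spaces stomata, was higher, at 5.33 RPKM in GMUCT against 1.20 ± 0.481 RPKM in RNA-seq (log2 ratio 1.81, limma adjusted p = 0.031), a call lost without the minimum level. ER, the receptor kinase ERECTA, was lower, at 18.7 RPKM in GMUCT against 87.7 ± 3.27 RPKM in RNA-seq (log2 ratio -2.20, limma adjusted p = 0.0043). SPCH and FAMA, bHLH factors of stomatal entry and guard cell fate, were higher at 0.76 and 0.57, and TMM, a receptor-like protein, was lower at -1.45. Guard cell markers KAT1, MYB60 and FAMA had 5.50 to 6.84 RPKM in GMUCT, against means of 3.54 to 6.53 RPKM in RNA-seq.

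Of 11 tested genes of the epidermal surface, limma called 6 lower and 3 higher in GMUCT, beside 36.9% and 32.1% over all genes tested, with a median log2 ratio of -0.67. Once the length trend was removed, limma called 5 lower and 6 higher and the median was 0.41. LTP1, a lipid transfer protein, was lowest, at 494.2 RPKM in GMUCT against 2174 ± 166 RPKM in RNA-seq (log2 ratio -2.13, limma adjusted p = 0.0083). SHN3, a wax and cutin regulator, was highest, at 22.75 RPKM in GMUCT against 10.5 ± 0.233 RPKM in RNA-seq (log2 ratio 1.08, limma adjusted p = 0.0064), while its relative SHN1 was lower at -1.79. PDF1, a target of ATML1 and PDF2, was higher in GMUCT at 0.54 and FDH, a cuticle enzyme, was lower at -1.15. Of 4 tested root hair genes, RSL4 had 2.95 RPKM in GMUCT and was missing from both RNA-seq tables, so its direction was fixed and no ratio is given. COBL9, the lowest of that list, was at 1.30 RPKM in GMUCT against 1.45 ± 0.417 RPKM in RNA-seq and was not called (limma adjusted p = 0.76). The median log2 ratio of the 3 with an RNA-seq value was 0.31.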
